A study of Mus musculus with 6 samples.

Results

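Collagens VI, VIII, XII, XIV and XVI are collagens of the extracellular matrix that do not build the thick banded fibrils themselves. The genes of 8 of their chains, Col6a1, Col6a2, Col6a3, Col8a1, Col8a2, Col12a1, Col14a1 and Col16a1, were picked by symbol, as a family, from the 41388 genes counted. The choice used no threshold on a measured value but was made with earlier results of these data known, and all 8 had counts in every sample. Collagen VI is assembled from 3 different chains into beaded microfilaments that lie around cells and link them to the surrounding matrix. Collagen VIII is a short-chain collagen that forms open networks and is known from vessel walls and from the basement membrane of the corneal endothelium. Collagens XII, XIV and XVI are fibril-associated collagens with interrupted triple helices. Collagens XII and XIV lie on or near fibrils of collagen I and connect them with other matrix molecules. In mammary tumors such collagens are known mainly as products of stromal fibroblasts, although tumor cells can make them as well.

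RNA sequencing had been done on 6 samples of cells sorted from mammary tumors of female FVB/N-TgN(MMTVPyVT)634Mul/J mice, in which the MMTV promoter drives the polyoma middle T oncogene in mammary epithelium. Both groups carried the transgene, no treatment is named for either, and both were sorted as live cells without CD45, the common leukocyte antigen. The 3 samples of tumor-initiating cells (TICs) were positive for CD24 and CD90, and the 3 samples of the other, non-CD24+CD90+ tumor cells, called non-TICs here, lacked one or both of these surface markers, although the design text calls them CD24-CD90-. Each sample pooled sorted cells from the tumors of 4 mice, the 3 pools of a group stood as biological triplicates, and the mice were 12 weeks old by the description of the experiments, while the labels give no age. A supplementary legend that covers both groups speaks of 12 mice in total, but whether a mouse gave cells to both groups is not stated. The groups were compared as unpaired. The p-values measure the spread between pools.

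Total counts ranged from 6781239 to 8450038 in non-TICs and from 8114933 to 9100552 in TICs, from 120 ng of RNA each. The 8 collagen genes had between 300 and 6022 counts per sample, far above a floor of 3 counts, which corresponds to 0.33 to 0.438 CPM (CPM, counts scaled by the TMM-normalized library size, the scale of all levels here). TIC replicate 3 stood apart on the first principal component, at 165.3 against -56.9 to -5.5 for the other 5 samples. Values without it are therefore given for each of the 8 genes and for other named genes whose call or size it decided. TIC replicate 2 stood apart on the second component, at -135.9 against -8.7 to 66.4 for the other 5 samples. Of the genes behind the sort, Cd24a had 402, 404.5 and 602 CPM in non-TICs and 439.7, 315 and 356 CPM in TICs. Thy1, which encodes CD90, had 75.9, 56.7 and 21.6 CPM against 90.7, 207 and 70.3 CPM. Both genes overlapped between the groups and neither passed the test (adjusted p = 0.985 and 0.35), and Ptprc, which encodes CD45, had counts only in non-TIC replicate 1.

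The comparison of TICs with the other tumor cells asks which transcripts differ in the population with the higher tumorigenicity. Of the 8 collagen genes, 6 were higher in TICs at an adjusted p-value under 0.1 in edgeR's exactTest, namely Col6a1, Col6a2, Col6a3, Col8a1, Col12a1 and Col14a1, and none was lower. Over all 12192 genes tested, 1.55% were called in either direction and 1.36% were called higher in TICs. Calls were more frequent among abundant genes, at 4.18% called higher of the 1317 genes at least as abundant as Col8a2, the least abundant of the 8. Every TIC sample lay above every non-TIC sample for 7 of the 8 collagen genes, against 7.69% of all genes tested. The median log2 fold change was 1.27 for the 8 genes and -0.0061 for all genes tested. The quasi-likelihood test of edgeR, which called 0.41% of all genes, called 4 of the 8, namely Col6a3, Col8a1, Col12a1 and Col14a1. DESeq2 called 7 of the 8 among 305 in all, and limma-voom called the same 4 among 86 in all. Without TIC replicate 3, exactTest called these same 4 genes among 127 in all, and without non-TIC replicate 3 it called 3 of the 8 among 72 in all. Without TIC replicate 2 it called Col8a1, Col8a2, Col12a1 and Col14a1, among 102 in all, and no collagen VI gene. In RNA from a mixed sample, more cells of a type and more RNA per cell cannot be told apart.

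**Figure D1:**
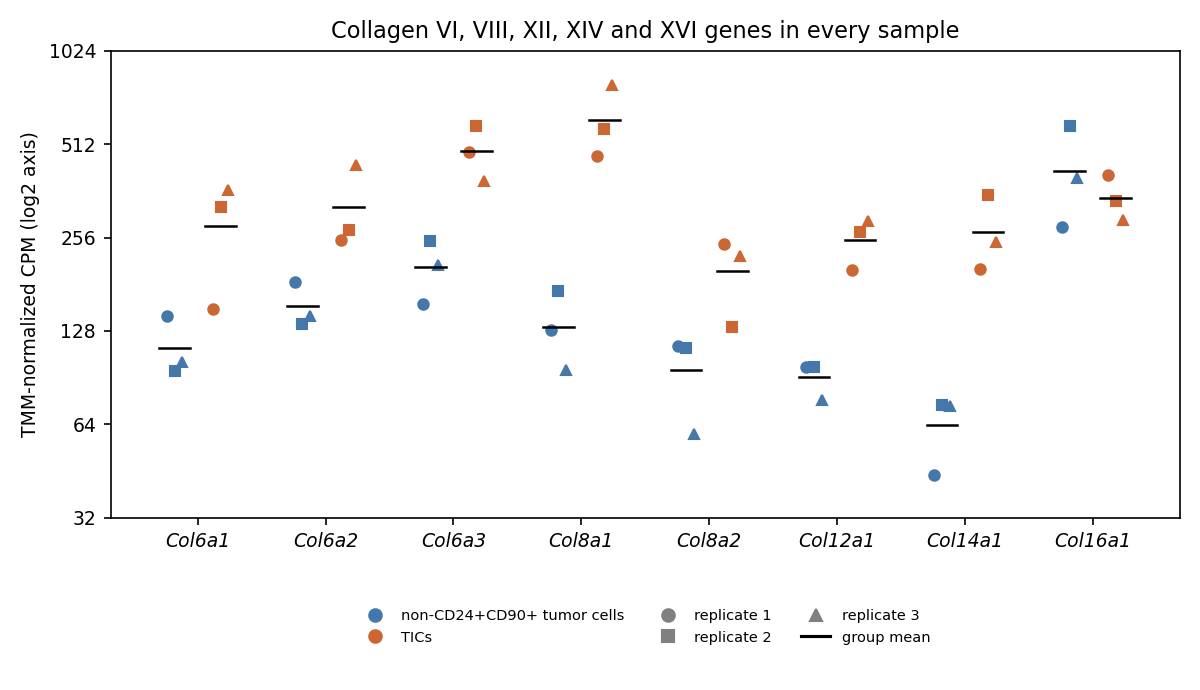
Level of each of the 8 collagen genes in every sample, in TMM-normalized CPM on a log2 axis, with non-TICs (non-CD24+CD90+ tumor cells in the legend) in blue and TICs in orange (n = 3 each), the replicate by symbol shape and a bar at each group mean. The TIC points lie above all non-TIC points for 7 genes, and the 2 groups overlap for Col16a1.

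The stretches just upstream of 4 of these genes are shown because the 4 span the range of behavior: Col6a1 and Col6a3 encode chains of 1 molecule, Col8a1 had the largest fold change and Col16a1 had none that passed the test. Sequences are the 250 bases before the RefSeq start site on GRCm38.p6, read on the strand of the gene, and capitals mark matches on either strand to any of 6 motifs. These were TATAAA, known as the TATA box, the CCAAT box, spelled as its name, the GC box read by Sp1, which is GGGCGG, the E-box read by ZEB and Snail factors, which is CACCTG, the AP-1 site, which is TGANTCA, and the TEAD site, which is CATTCC. The stretches lie at chr10:76726045-76726294 (Col6a1, minus strand), chr1:90843972-90844221 (Col6a3, minus strand), chr16:57754738-57754987 (Col8a1, minus strand) and chr4:130047590-130047839 (Col16a1, plus strand). The Col6a1 stretch reaches into the gene as GENCODE draws it, since the RefSeq start lies further in.
Col6a1: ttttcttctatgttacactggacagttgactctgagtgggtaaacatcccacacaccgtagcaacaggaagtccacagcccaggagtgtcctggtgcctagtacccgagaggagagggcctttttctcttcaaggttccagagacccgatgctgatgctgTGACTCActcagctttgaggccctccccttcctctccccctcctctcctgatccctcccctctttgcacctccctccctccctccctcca
Col6a3: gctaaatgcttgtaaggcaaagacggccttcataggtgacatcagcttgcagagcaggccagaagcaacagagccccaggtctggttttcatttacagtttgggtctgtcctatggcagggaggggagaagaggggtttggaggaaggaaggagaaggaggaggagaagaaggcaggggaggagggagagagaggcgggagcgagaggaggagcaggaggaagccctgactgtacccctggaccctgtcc
Col8a1: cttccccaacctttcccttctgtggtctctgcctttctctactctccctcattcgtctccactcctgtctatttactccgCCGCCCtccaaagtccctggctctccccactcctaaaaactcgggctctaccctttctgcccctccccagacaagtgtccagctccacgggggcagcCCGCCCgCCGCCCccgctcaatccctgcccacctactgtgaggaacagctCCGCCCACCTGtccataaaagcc
Col16a1: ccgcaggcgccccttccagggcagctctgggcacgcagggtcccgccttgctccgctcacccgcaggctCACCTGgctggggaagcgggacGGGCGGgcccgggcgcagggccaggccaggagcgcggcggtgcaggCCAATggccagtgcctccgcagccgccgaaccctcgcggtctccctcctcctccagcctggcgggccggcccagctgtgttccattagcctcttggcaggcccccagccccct
The Col6a1 stretch held 1 AP-1 motif, which 6.75% of 32851 mouse promoters of this length held. The Col6a3 stretch held no match to any of the 6 motifs. The Col8a1 stretch held 4 GC boxes (present in 32.7% of promoters) and 1 CACCTG (17.2%), which shares bases with one of the GC boxes. The stretch before Col8a2, which is not shown, also held 4 GC boxes, and those before Col6a2 held GC boxes as well. The Col16a1 stretch held 1 CACCTG, 1 GC box and 1 CCAAT (33.8%), and at 75.6% G and C it was the richest in these bases of the 4, against 56% for Col6a1, 57.2% for Col6a3, 60.8% for Col8a1 and a median of 52.4% over all promoters. TATAAA and CATTCC, present in 12.4% and 12.6% of promoters, were in none of the 4 stretches. A match describes letters only and shows no binding. RefSeq entries were matched for 6 of the 8 genes, all but Col12a1 and Col14a1. The principal transcripts of the 8 genes ranged from 4 exons (Col8a1 and Col8a2) to 70 (Col16a1).

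Collagen VI came first because its 3 main chains, encoded by Col6a1, Col6a2 and Col6a3, must be made together for the molecule to assemble. Col6a1 (ENSMUSG00000001119, GRCm38 chr10:76708792-76726168, minus strand) had 143, 95.2 and 101 CPM in the non-TIC replicates 1 to 3 and 151, 319.9 and 363 CPM in the TIC replicates 1 to 3. TIC replicate 1 lay just above the highest non-TIC sample, and the other 2 TIC samples lay far above it. The log2 fold change was 1.30 ± 0.36 (SE, n = 3 per group), a 2.46-fold higher level in TICs with an adjusted p of 0.0469 in exactTest. The call was lost in the quasi-likelihood test (adjusted p = 0.202) and in limma-voom (0.144), and also without TIC replicate 3 (log2 fold change 1.08, adjusted p = 0.197), TIC replicate 2 (0.23), non-TIC replicate 2 (0.375) or non-TIC replicate 3 (0.304).

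Col6a2 (ENSMUSG00000020241, chr10:76595762-76623630, minus strand) lies beside Col6a1 on the same strand and encodes the second chain. Its levels were 184, 134.5 and 143 CPM in non-TICs and 252, 269.9 and 439.6 CPM in TICs. The groups did not overlap, and TIC replicate 3 was the highest sample by a wide margin. The log2 fold change of 1.06 ± 0.32 corresponds to a 2.08-fold higher level, with an adjusted p of 0.0852 in exactTest. This was the weakest of the 6 calls. It was lost in the quasi-likelihood test (adjusted p = 0.209), in limma-voom (0.14) and without any one of 5 of the 6 samples in turn, including TIC replicate 3 (log2 fold change 0.782, adjusted p = 0.347).

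Col6a3 (ENSMUSG00000048126, chr1:90765923-90843971, minus strand) encodes the largest of the 3 chains, whose carboxy-terminal end is released as the fragment endotrophin. It had 156, 250.3 and 208 CPM in non-TICs and 484.5, 588 and 389 CPM in TICs. All 3 TIC samples lay well above the other group, and here TIC replicate 3 was the lowest of them. The level was 2.38-fold higher in TICs, a log2 fold change of 1.25 ± 0.31 with an adjusted p of 0.0122 in exactTest and 0.0914 in the quasi-likelihood test. Without TIC replicate 3 the log2 fold change was 1.41 (adjusted p = 0.00248). The call was lost without TIC replicate 2 (adjusted p = 0.129), without non-TIC replicate 1 (0.186) or without replicate 3 of that group (0.12).

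The balance of the 3 chains was then compared within each sample, where normalization between samples plays no part. The ratio of Col6a1 to Col6a2 counts was 0.774, 0.708 and 0.707 in non-TICs and 0.599, 1.19 and 0.826 in TICs. The ratio of Col6a3 to Col6a1 counts was 1.1, 2.63 and 2.06 against 3.21, 1.84 and 1.07, and that of Col6a3 to Col6a2 counts was 0.849, 1.86 and 1.45 against 1.92, 2.18 and 0.885. Each ratio overlapped between the groups, and the SD between TIC samples, 0.493 to 0.793 on the log2 scale, was larger than the distance between the groups. The differences in mean log2 ratio, TICs minus the other cells, were 0.199 (exact two-sided permutation test, p = 0.7), 0.0308 (exact p = 1) and 0.23 (exact p = 0.5), all with an adjusted p of 1 over the 3 ratios. With 3 samples against 3 the smallest p this test allows is 0.1. Per kilobase of exon, Col6a1 made up 32.7% to 49.3% of the summed level of the 3 chains over the 6 samples, Col6a2 21% to 32.7% and Col6a3 19.3% to 38.5%. The share of Col6a3 was lowest, at 19.3%, in one sample of each group, non-TIC replicate 1 and TIC replicate 3. These shares divide by the union of all annotated exons, and the order of the chains depends on that choice. Per kilobase of principal transcript, Col6a2 was the highest chain, at 39 CPM in non-TICs and 81.2 CPM in TICs. Col6a1 followed at 27.6 and 67.8 CPM, and Col6a3 at 22.8 and 54.1 CPM.

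The alternative chains of collagen VI, which can take the place of the Col6a3 chain, were scarce. Col6a4 had no count in any sample. Col6a5 had 0, 7 and 13 counts in non-TICs and 51, 32 and 46 counts in TICs, a log2 fold change of 2.52 ± 1.72 that did not pass the test (adjusted p = 0.958). Col6a6 had counts mainly in 2 samples, 60 in non-TIC replicate 2 and 66 in TIC replicate 2, and was not tested. These 3 chains were named after their values had been seen.

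Of the collagen VIII chains, Col8a1 had the largest fold change of the 8 genes and Col8a2 missed the threshold. Col8a1 (ENSMUSG00000068196, chr16:57624258-57754737, minus strand) had 129, 171.5 and 95.6 CPM in non-TICs and 470.5, 572.5 and 795 CPM in TICs. The lowest TIC sample lay far above the highest sample of the other group. The level was 4.64-fold higher in TICs, with a log2 fold change of 2.21 ± 0.32 and an adjusted p of 2.83e-07 in exactTest, the third smallest p-value of all genes tested. It passed the quasi-likelihood test (adjusted p = 0.0167) and each fit without one sample, where the log2 fold change ran from 2, without TIC replicate 3, to 2.45.

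Col8a2 (ENSMUSG00000056174, chr4:126286793-126314330, plus strand) encodes the other chain, which can join Col8a1 chains or form trimers of its own. It had 115, 113 and 59.5 CPM in non-TICs and 244, 132 and 224 CPM in TICs. The groups did not overlap, but TIC replicate 2 was close to the 2 higher non-TIC samples. The log2 fold change was 1.06 ± 0.36 and the adjusted p 0.175 in exactTest, so that no difference was called. DESeq2 gave an adjusted p of 0.0979, and without TIC replicate 2 the log2 fold change was 1.29 (adjusted p = 0.0772). Without TIC replicate 3 it was 0.995 (adjusted p = 0.352). The ratio of Col8a1 to Col8a2 counts was 1.12, 1.52 and 1.61 in non-TICs and 1.93, 4.34 and 3.55 in TICs. Every TIC sample lay above every sample of the other group in this ratio, which was chosen after the values had been seen and was not tested.

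**Figure D2:**
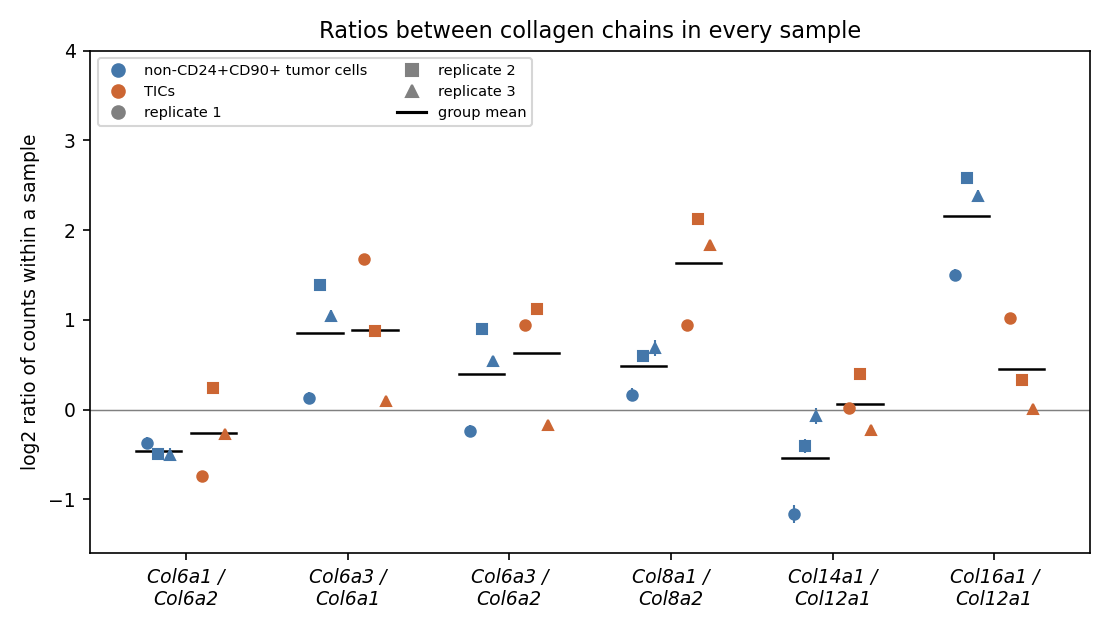
Log2 ratio of counts between pairs of collagen chains within each sample, for non-TICs in blue and TICs in orange (n = 3 each), with a bar at each group mean and error bars for the counting standard error, mostly smaller than the symbols. The 3 collagen VI ratios overlap between the groups, Col8a1 to Col8a2 is higher in every TIC sample, at ratios from 1.93 to 4.34, and Col16a1 to Col12a1 is lower in every TIC sample, at ratios from 1 to 2.03.

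Among the fibril-associated collagens, Col12a1 and Col14a1 were higher in TICs and Col16a1 was not. Col12a1 (ENSMUSG00000032332, chr9:79598991-79718831, minus strand) encodes collagen XII, typical of tissue under tension such as tendon. It had 97.9, 97.9 and 76.8 CPM in non-TICs and 201, 266 and 289 CPM in TICs. The samples within each group lay close together and the groups were well apart. The level was 2.77-fold higher in TICs, a log2 fold change of 1.47 ± 0.31 with an adjusted p of 0.00116 in exactTest and 0.0538 in the quasi-likelihood test. The call held in every fit without one sample (log2 fold change 1.37 to 1.63), at 1.38 without TIC replicate 3 (adjusted p = 0.00592).

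Col14a1 (ENSMUSG00000022371, chr15:55307750-55520803, plus strand) encodes collagen XIV, which limits the lateral growth of collagen fibrils. It had 43.8, 74 and 73.4 CPM in non-TICs and 203, 350.3 and 247 CPM in TICs. Even the lowest TIC sample was far above the highest of the other group. The level was 4.18-fold higher in TICs, with a log2 fold change of 2.06 ± 0.34 and adjusted p-values of 1.4e-05 in exactTest and 0.0293 in the quasi-likelihood test. The call held in every fit without one sample (1.82 to 2.24), at 2.14 without TIC replicate 3. The ratio of Col14a1 to Col12a1 counts was 0.447, 0.756 and 0.955 in non-TICs and 1.01, 1.32 and 0.854 in TICs, and the groups overlapped.

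Col16a1 (ENSMUSG00000040690, chr4:130047840-130099283, plus strand) encodes collagen XVI, found near fibrillin microfibrils and basement membranes. It had 278, 586 and 399 CPM in non-TICs and 407.5, 335 and 291 CPM in TICs. The groups overlapped, with the highest and the lowest of all 6 values both in non-TICs. The log2 fold change was -0.29 ± 0.33 (adjusted p = 1 in exactTest), and it was -0.161 without TIC replicate 3 and 0.0281 without non-TIC replicate 2. The ratio of Col16a1 to Col12a1 counts was 2.83, 5.99 and 5.19 in non-TICs and 2.03, 1.26 and 1 in TICs. Every TIC sample was below every sample of the other group in this ratio, which was also chosen after the values had been seen and was not tested.

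**Figure D3:**
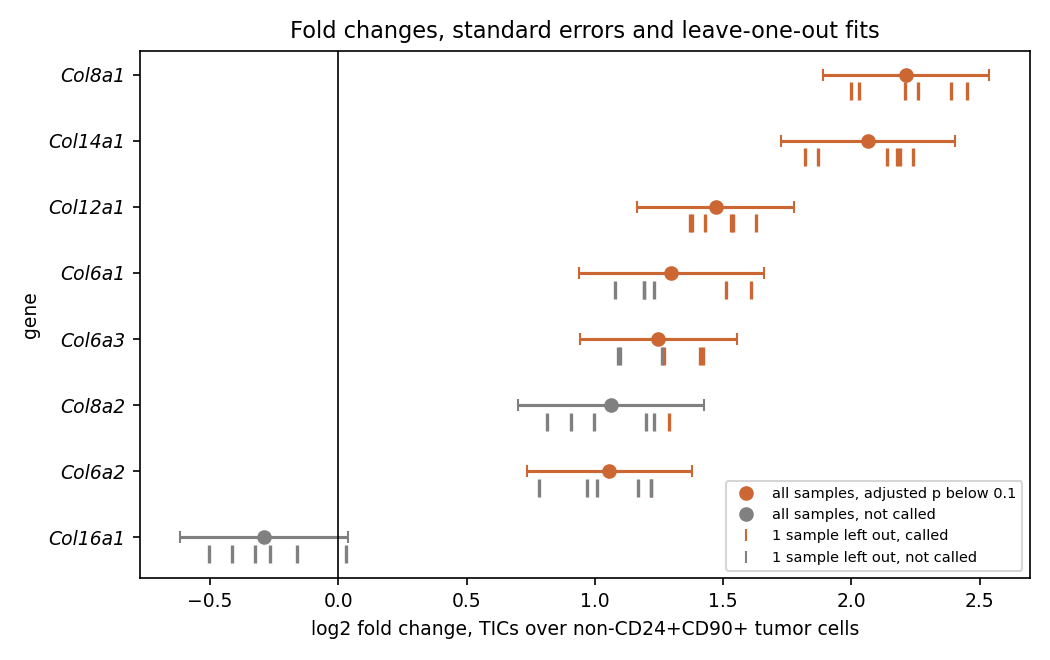
Log2 fold change of each of the 8 collagen genes, TICs over non-TICs, with bars for the standard error of the negative binomial fit (n = 3 per group) and ticks below for the 6 fits that leave out one sample, orange where edgeR's exactTest gave an adjusted p under 0.1 and gray where it did not. Col8a1 (2.21) and Col14a1 (2.06) lie highest, Col8a2 (1.06) is not called, and Col16a1 (-0.29) is the only gene below 0.

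Levels of different genes were compared per kilobase of exon, the union of all annotated exons of a gene. In non-TICs Col16a1 was the highest at 62.4 ± 23 CPM per kilobase (SD, n = 3), ahead of Col6a1 at 25.8 ± 5.89, and Col12a1 was the lowest at 5.97 ± 0.8. In TICs Col8a1 was the highest at 78.2 ± 21.2 CPM per kilobase, followed by Col6a1 at 63.5 ± 25.6 and Col16a1 at 51 ± 8.74, and Col12a1 was again the lowest at 16.5 ± 3.03. Col8a2, Col6a3, Col6a2 and Col14a1 lay between, from 38 to 44.6 CPM per kilobase, closer to each other than their SDs of 8.3 to 13.3. Neighbors in the TIC order above them also differed by less than the larger of their SDs. The order depends on the length used: with the principal transcript of each gene in place of all exons, Col6a2 moved from 38.5 to 81.2 CPM per kilobase in TICs and stood next to Col8a1 at 119.9.

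Together the 8 genes had 1146, 1522 and 1157 CPM in non-TICs and 2413, 2834 and 3037 CPM in TICs, means of 1275 ± 214 and 2761 ± 318 (SD, n = 3). The TIC samples were all far above the others in this sum. Of all collagen counts in a sample, the 8 genes held 22.2%, 27.7% and 21.2% in non-TICs and 21.3%, 20.6% and 20.3% in TICs, and the exact 95% binomial intervals of single samples, which cover counting error only, reached at most 28.1% and at least 20.1%. The share overlapped between the groups, with means of 23.7% ± 3.47 and 20.7% ± 0.501. It includes Col16a1, whose log2 fold change was below 0, and the share without that gene is not given here. Without Col16a1 the summed level was 868.6, 936.2 and 758.1 CPM in non-TICs and 2005, 2499 and 2747 CPM in TICs. The summed level of the other collagens outside these and their closest relatives was 3671 to 3994 CPM in non-TICs and 8606 to 11660 CPM in TICs.

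Among the 22 other collagen genes tested, 7 were higher in TICs and none was lower, with a median log2 fold change of 0.813. The 7 included the fibril-forming chains Col1a1 (1.54 ± 0.28), Col1a2 (2.01 ± 0.26), Col3a1 (1.66 ± 0.33), Col5a1 (1.31 ± 0.30) and Col5a2 (2.05 ± 0.34), on which fibril-associated collagens settle. The other 2 were the basement membrane chains Col4a1 (0.97 ± 0.30, adjusted p = 0.0922) and Col4a2 (1.003 ± 0.29, adjusted p = 0.0651), and in the quasi-likelihood test these 2 were lost (0.203 and 0.164) while the 5 fibril-forming chains passed. Without TIC replicate 3, Col4a1 (0.774, adjusted p = 0.283) and Col4a2 (0.878, adjusted p = 0.192) lost their calls. Of the closer relatives, namely the remaining collagen VI chains, collagens IX and X and the remaining fibril-associated collagens, 4 genes were tested and none was called by exactTest (median 0.105) or by the other 3 tools, 0 had an unadjusted p under 0.05, and Col22a1 had no count. Col9a3, the most abundant of them, had a log2 fold change of -0.51 ± 0.35 (adjusted p = 0.904).

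The receptors of these collagens gave 1 call in 9 genes tested, with a median log2 fold change of 1.43. Of the 9, 5 were higher at an unadjusted p under 0.05, a level for which the share of all genes tested is not given here. DESeq2 called 2, Antxr1 and the collagen-binding integrin subunit Itga11 (log2 fold change 3.43 ± 1.12, adjusted p = 0.242 in exactTest and 0.0262 in DESeq2), which was named after its values had been seen. Antxr1, also known as TEM8, a transmembrane receptor that binds collagen VI, rose 1.43 ± 0.38 on the log2 scale, from 48.4 ± 19.6 to 131 ± 19.9 CPM (adjusted p = 0.0305 in exactTest, 0.169 in the quasi-likelihood test). Itgb1, the beta 1 subunit shared by the collagen-binding integrins and the most abundant of the list, had a log2 fold change of 0.11 ± 0.35 that was not called and changed sign, to -0.351, without TIC replicate 1. The summed receptor level was 468 to 665 CPM in non-TICs and 654 to 870 CPM in TICs, which overlapped slightly.

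Matrix molecules that bind these collagens gave 7 calls in 13 genes tested, all higher in TICs, with a median of 1.43. Decorin (Dcn, 1.48 ± 0.35) and biglycan (Bgn, 1.44 ± 0.27), small leucine-rich proteoglycans that bind collagen VI and fibrils, were among them, as was fibromodulin (Fmod, 2.88 ± 0.70). Biglycan was the most abundant of the list, at 883 ± 122 CPM in non-TICs and 2396 ± 319.7 CPM in TICs. Fibronectin (Fn1, 1.51 ± 0.30), fibrillin 1 (Fbn1, 1.82 ± 0.29), the microfibril protein Mfap5 (1.74 ± 0.43) and tenascin XB (Tnxb, 1.30 ± 0.37), a partner of collagens XII and XIV, were the other 4. Of the 7, Bgn, Fn1 and Fbn1 also passed the quasi-likelihood test, and Fmod lost its call without TIC replicate 3 (2.55, adjusted p = 0.225). Matn1 and Matn3 had no count. Of 15 enzymes that modify, fold or cut collagen chains, 2 were called higher, the gelatinase Mmp2 (1.33 ± 0.36) and the membrane-bound collagenase Mmp14 (1.25 ± 0.29), and the list's median was 0.685. Mmp14, which passed the quasi-likelihood test (adjusted p = 0.0729) where Mmp2 did not (0.171), went from 1099 ± 25.4 to 2606 ± 701 CPM.

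**Figure D4:**
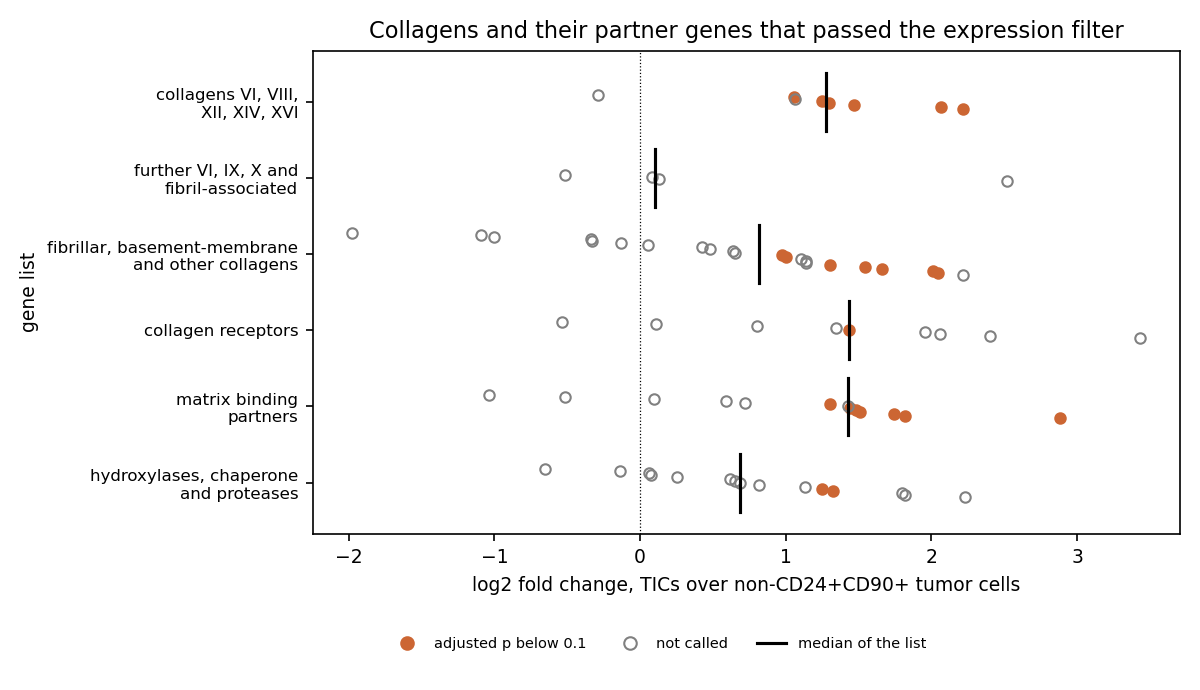
Log2 fold change, TICs over non-TICs, of every gene tested in the 8 collagens and the lists of related collagens, other collagens, receptors, binding partners and chain-processing enzymes, with called genes filled, the others open and each list's median as a bar. Called genes lie to the right of 0 throughout, 7 among the other collagens, 7 among the binding partners, 2 among the enzymes and 1 among the receptors.

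Markers of other cell types that a gate on CD24, CD90 and CD45 could let through were measured beside the collagens. Fibroblast markers had a summed level of 1140 to 1710 CPM in non-TICs and 2324 to 3212 CPM in TICs, and 5 of the 12 tested (Fbln1, Cd34, Pi16, Dpt and Lrrc15) were called higher, with a median log2 fold change of 1.28 and Tcf21 at 0 in every sample. The most abundant of them, Gsn, which many cell types express, had a log2 fold change of 0.56 ± 0.34 and was not called. The median of the fibroblast markers stood beside the 1.27 of the 8 collagen genes. The medians of the pericyte and smooth muscle markers (1.17) and of the endothelial markers (1.21) were also near it. In the quasi-likelihood test 4 of the 5 calls, all but Pi16, passed. In exactTest without TIC replicate 2, the log2 fold change of Pi16 was 0.758 and its call was lost (adjusted p = 0.508). Pi16 also lost its call without any one of the non-TIC samples (adjusted p = 0.218 to 0.385). Dpt lost its call without non-TIC replicate 3 (1.4, adjusted p = 0.122). Cd34 and Fbln1 kept theirs in every fit without one sample.

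Pericyte and smooth muscle markers summed to 502 to 709.5 CPM against 878.5 to 1426 CPM, with 1 of 12 called higher (Rgs5, 1.45 ± 0.28). Endothelial markers summed to 201.5 to 254 CPM against 274 to 1103 CPM, with 1 of 11 called (Robo4, 2.72 ± 0.62) and 7 of 11 higher at an unadjusted p under 0.05 (median log2 fold change of the 11, 1.21). The share of all genes tested at that unadjusted p is not given here. Without TIC replicate 3 the log2 fold change of Robo4 was 1.79 and its call was lost (adjusted p = 0.401), as it was without non-TIC replicate 1 (0.126) or 3 (0.102). Their most abundant gene, Esam, stood at 1.15 ± 0.47, or 0.71 without TIC replicate 3, and was not called. In the endothelial and adipocyte sums, TIC replicate 3 was the highest sample.

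Adipocyte markers ran from 70.2 to 149 CPM against 194.5 to 1229 CPM, but 2 of 10 were tested, and Adipoq, Plin1, Lep, Retn and Plin4 had no count in any sample. The sum was mostly Fabp4 (2.75 ± 0.51, called, and 1.88 with an adjusted p of 0.00566 without TIC replicate 3), which endothelial cells also express. Of the Schwann cell markers, Sox10, the most abundant, had a log2 fold change of -0.06 ± 0.38, or 0.236 without TIC replicate 3, and was not called, and Foxd3 had no count.

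Leukocyte markers summed to 93.7 to 159 CPM against 118 to 239.5 CPM, with 1 of 5 called (Lyz2, 2.68 ± 0.63), Adgre1 and Cd3e at 0, and the most abundant gene, S100a8, at 0.18 ± 0.39. Of the epithelial markers none was called by exactTest, although 2 luminal and 1 basal marker had an unadjusted p under 0.05 and DESeq2 called 2 luminal markers lower, Krt18 and Cdh1. The luminal sum ranged from 7355 to 7801 CPM in non-TICs and from 5287 to 5625 CPM in TICs, with a median log2 fold change of -0.369 over 11 genes and 5 of them lower in every TIC sample. Krt18, the most abundant, was at -0.69 ± 0.26 (adjusted p = 0.295). The basal sum was 605 to 1204 CPM against 489 to 719 CPM, with a median of -0.0443 over 7 genes and Krt14 at -0.81 ± 0.35 (adjusted p = 0.423). Summed luminal markers, typical of the labelled breast cancer cells, were thus abundant in all 6 samples. Single luminal markers could be scarce, as Esr1 had 2.77 to 18.8 CPM over the 6 samples. Foxa1 had 0 CPM in every TIC sample and 0.567 to 5.84 CPM in non-TICs. The shares of all genes tested that were lower in every TIC sample or had an unadjusted p under 0.05 are not given here. Of the 4 calls named among pericyte, endothelial, adipocyte and leukocyte markers, Rgs5 and Fabp4 passed the quasi-likelihood test. The part of these marker differences in the collagen result was not tested.

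**Figure D5:**
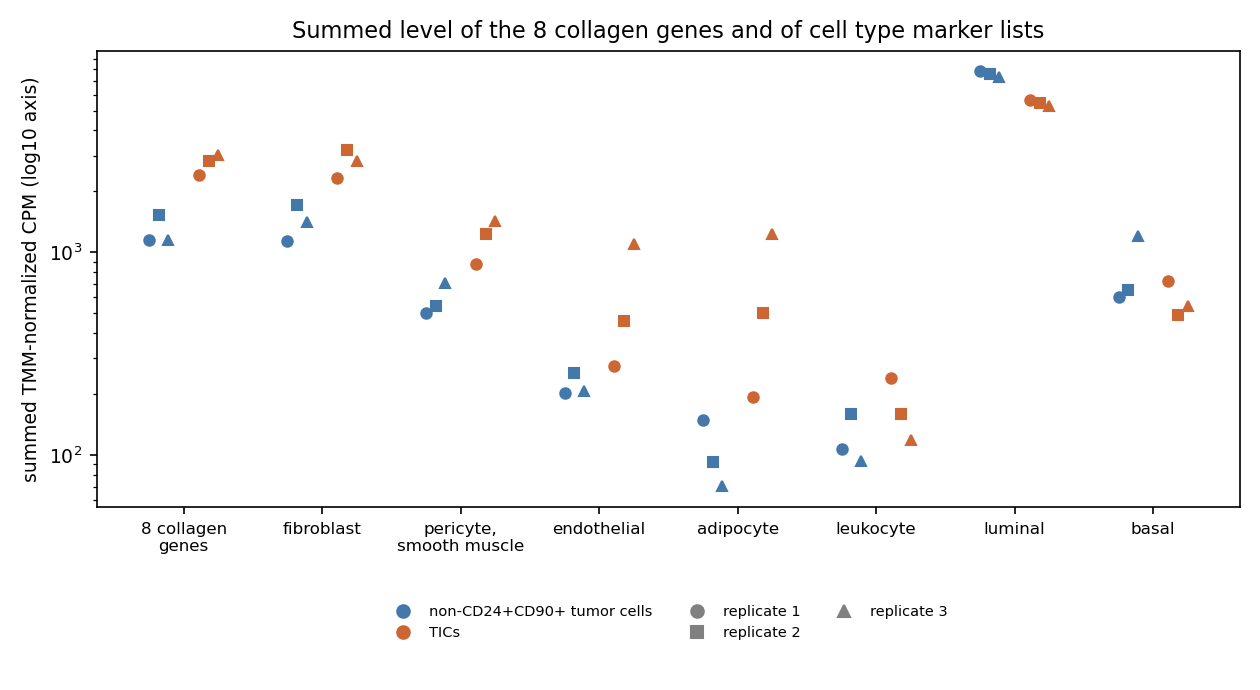
Summed level of 7 lists of cell type markers and of the 8 collagen genes in every sample, in TMM-normalized CPM on a log10 axis, with non-TICs in blue and TICs in orange (n = 3 each) and the replicate by symbol shape. The fibroblast sums lie at 1140 to 1710 CPM in one group and 2324 to 3212 CPM in TICs, the collagen sums at 1146 to 1522 CPM and 2413 to 3037 CPM, and the luminal sums are lower in TICs.

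The genes whose profile over the 6 samples was most like the mean profile of the 8 collagens were found by the root mean square difference of centred log2(CPM + 1) values among 8754 genes with a mean of at least 10 CPM. The closest was Serpinf1, which encodes the secreted factor PEDF, at a difference of 0.0319, and it went from 444 to 1079 CPM (log2 fold change 1.28 ± 0.27, adjusted p = 0.00125). The next were the neonatal Fc receptor Fcgrt (0.0886), the replication clamp Pcna (0.114) and the peptidyl-prolyl isomerases Fkbp9 (0.118) and Ppic (0.126). Of these 4, Ppic passed the test (1.29 ± 0.31, adjusted p = 0.00943), and Fcgrt, Pcna and Fkbp9 had adjusted p-values of 0.293, 0.515 and 0.352. Among the collagen genes themselves, Col12a1 lay closest to the shared mean, at 0.141, and Col16a1 farthest, at 0.823.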

How the data were processed

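RNA had been isolated from sorted cells of 6 samples and sequenced. Per the submitters' processing notes and the study's methods, reads were trimmed with Trimmomatic (version 0.32), aligned to GRCm38 with STAR (version 2.4.0), reduced to uniquely mapped reads with SAMtools (version 1.1) and counted per gene with HTSeq. The authors deposited raw counts per Ensembl gene, 1 file per sample, without normalization. HTSeq's version and strand setting, the annotation release and the CPM limit are not given in the sources used here. Reads without strand cannot separate a gene from an antisense partner, but in GENCODE release M21 no exon of another gene overlaps an exon of the 8 collagen genes. Gene symbols, lengths and coordinates came from that release on GRCm38, and 40254 of the 41388 genes had a symbol, while the others held 0.171% of all counts.

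From the counts on, the 12192 genes that exceeded 1 CPM in 3 or more samples were compared with exactTest of edgeR (version 4.0.16, R version 4.3.3), the test named in the study's methods. TMM normalization and common and tagwise dispersions were chosen here. The common dispersion was 0.678. Benjamini-Hochberg adjusted p-values over all genes tested were read at a threshold of 0.1. Standard errors came from the negative binomial fit. Depth limits precision through counting error, which is small for genes of 300 or more counts. The fits were also run on counts simulated from the fitted negative binomial model, which cannot test whether that model suits these data. Alternatives were the quasi-likelihood test, DESeq2 (version 1.42.0), limma-voom (limma version 3.58.1), other size factors, filters, dispersions and thresholds, and the omission of each sample. Principal transcript lengths and 3 of the chain ratios were added after the data had been seen. The genes named are the 8 collagens, from the other lists every called gene, the most abundant gene and genes at 0, and the 5 genes most like the collagens' mean profile. Members and lists were chosen with earlier results of these data known. Promoter stretches are from RefSeq (GRCm38.p6). Protein sequences were not used here, and some genes of the Schwann cell list are not reported here.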

Additional observations from a re-analysis of the deposited data

How the results depend on the processing

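Leaving out samples and changing the test altered the counts of calls more than the directions. Over all genes, 189 calls became 50 in the quasi-likelihood test, 305 in DESeq2, 86 in limma-voom, 112 without a filter on low counts, 116 at an adjusted p under 0.05, and 72 (non-TIC replicate 3 left out) to 323 (TIC replicate 1 left out) without one sample. Among the 8 collagen genes, 6 calls became 3 to 6 without one sample. Col6a1 lost its call in the quasi-likelihood test (log2 fold change 1.30) and limma-voom (1.22), and ranged from 1.08 to 1.61 without one sample. Col6a2 lost it in the quasi-likelihood test (1.06), limma-voom (1.02), with library size alone (0.991) and without a filter (1.07), and ranged from 0.782 to 1.22. Col6a3 ranged from 1.09 to 1.42. Col8a2 gained a call in DESeq2 (1.09), with at least 10 counts in every sample (1.1) and with trended dispersions (1.06), and ranged from 0.815 to 1.29. Col16a1 ranged from -0.50 to 0.0281. Without one sample, Itgb1 ranged from -0.351 to 0.318, Sox10 from -0.388 to 0.236 (0.0637 without non-TIC replicate 1) and S100a8 from -0.168 to 0.441. The log2 ratio differences ranged from -0.0517 to 0.441 (Col6a1 to Col6a2), from -0.368 to 0.425 (Col6a3 to Col6a1, -0.331 without non-TIC replicate 1) and from -0.0881 to 0.633 (Col6a3 to Col6a2, -0.0162 without TIC replicate 2). The collagens' share of collagen counts in TICs was 21.5% per kilobase in place of 20.7%. The cause of these changes was not tested. Of 112 alternative values for the 8 genes, 89 kept direction and side of the threshold, 18 lost the call, 4 gained it and 1 changed sign. For 41 genes outside the 8, 487 of 573 kept both, 79 lost the call, 3 gained it and 4 changed sign. No paired analysis was possible because the titles number the samples 1 to 6 and share no replicate number. Planned protein features were not run.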
